A study of Mus musculus with 12 samples.

Results

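The genes described here are the laminin chains Lama1, Lama4, Lama5, Lamb1, Lamb2 and Lamc1, the nidogens Nid1 and Nid2, the perlecan gene Hspg2, and Dab2, an adaptor of clathrin-mediated endocytosis. They were chosen by name, and every probe set that the array's annotation pairs with one of these symbols and no other was taken. This gave 23 of the 34945 probe sets with a single symbol, for 10 of 18193 genes. The samples were 12 mouse epiblast stem cell (EpiSC) RNA samples, each hybridised to 1 Affymetrix expression array, from 2 diploid lines of strain B6D2F1 and 2 haploid lines of strain 129Sv, with 3 biological replicates a line. The names EpiSC-1 and EpiSC-2 of the sample titles are read here as separate lines. EpiSCs are pluripotent and stand close to the embryo's postimplantation epiblast. The culture medium of every line was N2B27 to which bFGF and Activin A were added, and no treatment distinguished the groups. Since every haploid line was 129Sv and every diploid line B6D2F1, ploidy and strain cannot be told apart in any haploid against diploid value below, and each ploidy is represented by its 2 lines only.

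Basement membranes are thin extracellular sheets on which epithelia rest, and the epiblast lies on one. Laminins are trimers of an alpha, a beta and a gamma chain that assemble inside the cell, are secreted and polymerise at the cell surface. Nidogens bind the laminin gamma chain and type IV collagen, and perlecan, a heparan sulphate proteoglycan, links both networks to the cell surface. In the early embryo the endoderm layers next to the epiblast are known as a main source of these proteins, and Dab2, which sorts receptors of the LDL receptor family into clathrin-coated pits, is known for its part in ordering that endoderm.

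RefSeq promoter windows on GRCm38.p6 were held for 6 of the 10 genes, 7 windows in all, and those of Lamb1, Nid1 and Dab2 are shown because these 3 genes passed the test between haploid and diploid lines. Each window is the 250 bases before the annotated start, 5′ to 3′ on the gene's strand. Capitals mark matches to GGGCGG (the GC box, bound by Sp-family factors) or to AGATAA and TGATAA (a motif of GATA factors), searched on both strands, so that a reverse-strand GC box reads CCGCCC. The Lamb1 window is chr12:31265043-31265292 (plus strand), that of Nid1 is chr13:13437352-13437601 (plus strand), and those of Dab2 are chr15:6299539-6299788 and chr15:6386498-6386747 (plus strand).
Lamb1: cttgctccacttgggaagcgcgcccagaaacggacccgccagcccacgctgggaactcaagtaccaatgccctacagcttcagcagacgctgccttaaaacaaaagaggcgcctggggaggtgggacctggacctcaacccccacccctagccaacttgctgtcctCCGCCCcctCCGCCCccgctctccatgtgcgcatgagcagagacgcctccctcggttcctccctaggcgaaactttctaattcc
Nid1: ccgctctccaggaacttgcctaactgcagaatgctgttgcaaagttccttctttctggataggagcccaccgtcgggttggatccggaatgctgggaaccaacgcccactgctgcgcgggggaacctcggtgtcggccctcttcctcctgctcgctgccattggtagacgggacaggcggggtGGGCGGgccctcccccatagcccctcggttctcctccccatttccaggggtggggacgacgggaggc
Dab2, upstream start: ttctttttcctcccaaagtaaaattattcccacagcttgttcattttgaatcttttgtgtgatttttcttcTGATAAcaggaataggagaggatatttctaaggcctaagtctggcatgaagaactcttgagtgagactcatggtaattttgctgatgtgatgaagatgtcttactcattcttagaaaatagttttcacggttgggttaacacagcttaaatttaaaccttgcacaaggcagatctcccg
Dab2, downstream start: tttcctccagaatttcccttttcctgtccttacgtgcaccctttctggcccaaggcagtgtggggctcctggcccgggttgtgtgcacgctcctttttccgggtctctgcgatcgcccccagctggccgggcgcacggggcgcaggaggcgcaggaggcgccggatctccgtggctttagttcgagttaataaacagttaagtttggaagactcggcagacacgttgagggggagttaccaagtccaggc
The Lamb1 window held 2 GC boxes, both on the reverse strand, and the Nid1 window held 1. The upstream Dab2 window held 1 TGATAA, and the downstream one held no match. Of the windows not shown, Lama5 held 4 GC boxes, Hspg2 held 5 and Lamb2 held none of the motifs. Among 32851 promoter windows of the same length, 32.74% held a GC box, 9.99% an AGATAA and 7.94% a TGATAA, and 16.6% held at least 1 of the 2 GATA motifs. A match is a run of letters only, and no binding was measured.

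Values are MAS5 signals, a linear brightness with the same trimmed mean on every array, and differences are of log2 signal. A gene was represented by its brightest probe set. It was tested if that probe set's mean log2 signal over the arrays reached 5.97, a signal of 62.6, the median over all probe sets but controls. This limit kept 11105 genes, 8 of the 10 described here among them, while Lama1 and Lama4 fell below it. Very low signals weigh more in a mean of log2 signals than in a mean of signals. Signals of different probe sets depend on their probes, so levels are compared between lines and never between genes. Correlations of log2 signals between replicate arrays were 0.989 to 0.992. Haploid EpiSC-1 stood apart in the epiblast markers Otx2 and Fgf5. Otx2 read 67.0 to 81.5 there against 2048 to 4052 in the other lines, and Fgf5 64.4 to 124 against 2098 to 3852. The other epiblast markers were mixed: Pou5f1 was lowest in that line (4250 to 4278), while Sox2 was highest there (4480 to 4573). In bulk RNA, fewer cells of a type and less RNA per cell cannot be told apart.

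Between haploid and diploid lines, Nid1, Dab2 and Lamb1 were higher in the haploid lines. The difference was 4.94-fold for Nid1, 3.44-fold for Dab2 and 1.38-fold for Lamb1. These were 3 of the 8 genes tested, against 9.69% of all 11105 genes called higher, and none of the 8 was called lower, against 7.54% (17.2% in either direction). The median difference over the 8 genes was 0.39 on the log2 scale, and over all genes it was 0.00. The test was limma with the line as a random block and Benjamini-Hochberg adjustment over all genes. In the same 3 genes every haploid array was above every diploid array, which held for 17.1% of all genes, and in Lama5 every haploid array was below every diploid one, which held for 14.8%.

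**Figure D1:**
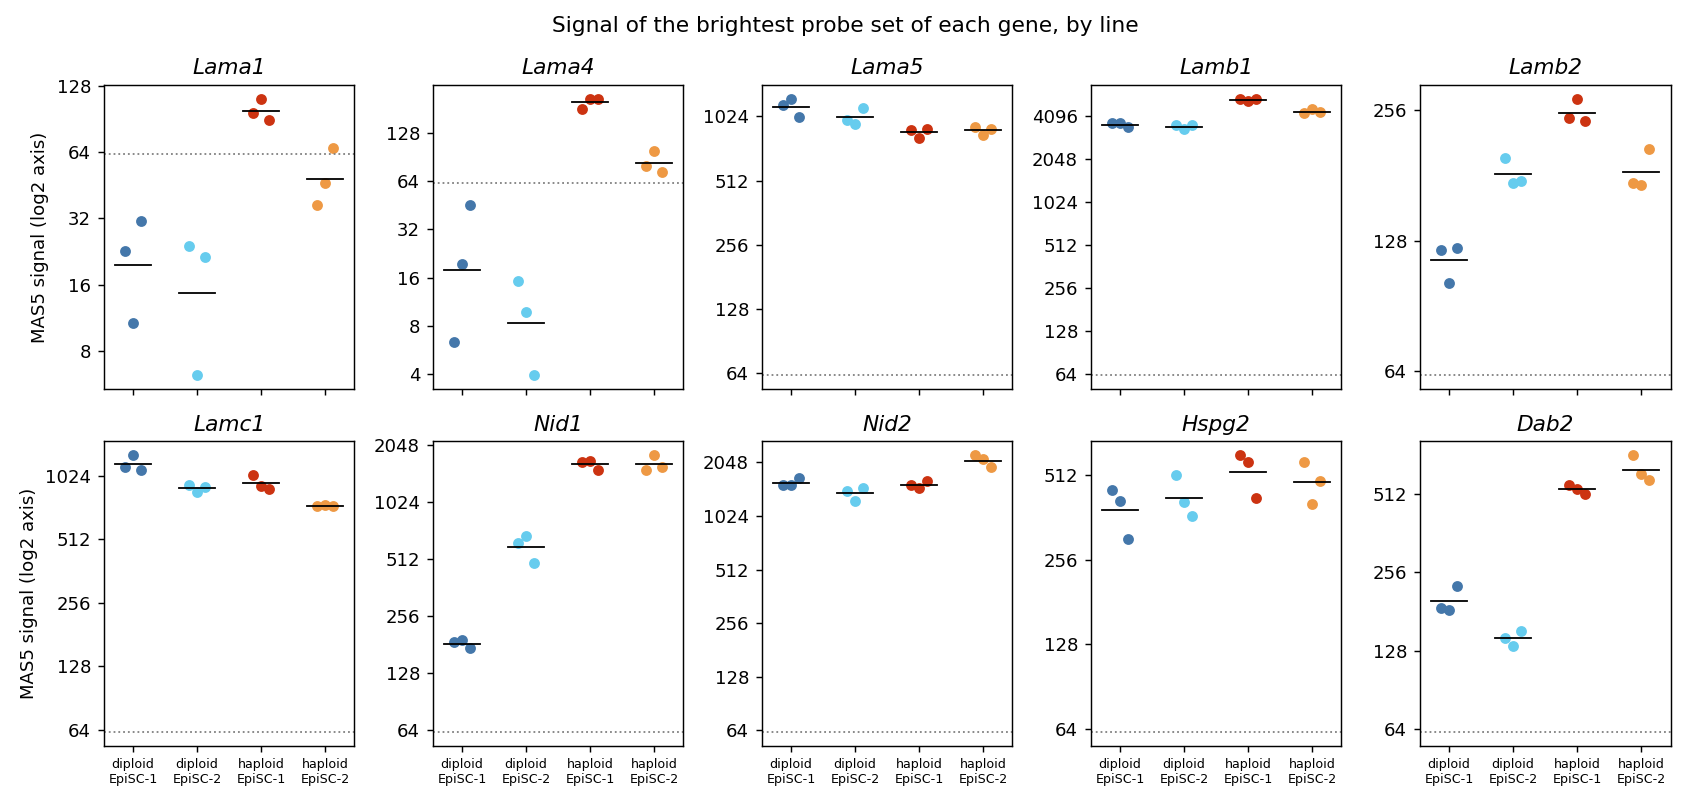
MAS5 signal (log2 axis) of the brightest probe set of each of the 10 genes in the 12 arrays. Points are replicates and bars the geometric mean of the 3 replicates of a line. The dotted line is the signal of 62.6, which the geometric mean over the 12 arrays had to reach for testing. Nid1, Dab2 and Lamb1 have all haploid points above all diploid ones, as 17.1% of the 11105 tested genes do. The same holds for Lama1 and Lama4, whose diploid points lie below the dotted line. They are not among the tested genes, and no share was taken over untested ones.

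Among the 3 alpha chains of this set, Lama5 was the only one bright enough to test. Lama5, on chromosome 2 (probe set 1427009_at), encodes the alpha chain of the laminins that are widespread in embryonic epithelia. It read 1160, 1238 and 1021 in diploid EpiSC-1 and 990, 946 and 1120 in diploid EpiSC-2. The haploid arrays read 886, 815 and 896 in EpiSC-1 and 909, 838 and 896 in EpiSC-2. All 6 haploid arrays were thus the lower ones, but the difference of -0.30 (SE 0.21, 95% interval -0.74 to 0.14) did not pass the test (adjusted p = 0.372). The second Lama5 probe set, 1427010_s_at, gave -0.45 (adjusted p = 0.361), and the third, 1459614_at, read 34.0 or less on every array.

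Lama1, on chromosome 17, encodes the alpha chain of laminin-111, the first laminin trimer of the embryo. Its only probe set, 1418153_at, read 22.7, 10.7 and 31.0 in diploid EpiSC-1 and 24.0, 6.19 and 21.3 in diploid EpiSC-2. In haploid EpiSC-1 it read 96.1, 111.5 and 89.5, and in haploid EpiSC-2 36.7, 46.1 and 66.9. No haploid array overlapped a diploid one, but the share of genes of which this holds was taken over tested genes only. The haploid EpiSC-1 arrays were above the signal limit, as was 1 of haploid EpiSC-2, with the rest below it. Lama4, on chromosome 10, encodes an alpha chain known from vessel and mesenchymal basement membranes. Its brighter probe set, 1424807_at, read 6.37, 19.5 and 45.1 in diploid EpiSC-1 and 15.2, 9.78 and 3.93 in diploid EpiSC-2. It read 180.4, 208.3 and 207.9 in haploid EpiSC-1 and 79.2, 98.6 and 72.4 in haploid EpiSC-2, so that every haploid array was above the limit and every diploid array below it. With no signal filter, over 18193 genes of which 18.1% were called in either direction, the haploid minus diploid difference was 3.39 (SE 0.97, adjusted p = 0.0211) for Lama4 and 2.03 (SE 0.83, adjusted p = 0.115) for Lama1. The sizes of these differences are uncertain, since the diploid signals lie in the range of background. The second Lama4 probe set, 1424808_at, stayed at or below 22.5 on every array.

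Lamb1 and Lamb2 are the beta chains of this set. Lamb1, on chromosome 12, encodes the beta chain of laminin-111 and laminin-511. Its brightest probe set, 1424114_s_at, read 3665, 3658 and 3457 in diploid EpiSC-1 (3593 ± 119, SD, n = 3) and 3577, 3326 and 3547 in diploid EpiSC-2 (3483 ± 137, n = 3). The haploid arrays read 5454, 5226 and 5400 in EpiSC-1 (5360 ± 119, n = 3) and 4340, 4589 and 4388 in EpiSC-2 (4439 ± 132, n = 3). The diploid lines overlapped, haploid EpiSC-2 lay above them and haploid EpiSC-1 above all. The haploid minus diploid difference was 0.46 (SE 0.13, 95% interval 0.20 to 0.73, adjusted p = 0.0185). It was no longer called after arrays were centred on their medians (0.34, adjusted p = 0.0992), without haploid EpiSC-1 (0.33, adjusted p = 0.109), with line means as the units (adjusted p = 0.218) or with the mean of all its probe sets (1.04, adjusted p = 0.104). Probe sets 1424113_at (0.56, adjusted p = 0.0514) and 1451241_at (0.96, adjusted p = 0.148) pointed the same way without passing the test over probe sets. The remaining one, 1446180_at, was under the signal limit in mean log2 signal but is part of the mean of all Lamb1 probe sets. It read 3.42 to 29.6 on the diploid arrays and 39.5 to 88.7 on the haploid ones.

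Lamb2, on chromosome 9, encodes the beta chain of laminins such as those of kidney filter and neuromuscular junction. Its probe set, 1416513_at, read 122, 102 and 123 in diploid EpiSC-1 and 198, 174 and 176 in diploid EpiSC-2. It read 245, 272 and 242 in haploid EpiSC-1 and 173, 172 and 209 in haploid EpiSC-2. Haploid EpiSC-1 was highest and diploid EpiSC-1 lowest, while the other two lines overlapped. The ploidy difference of 0.57 (SE 0.36, 95% interval -0.19 to 1.34) did not pass the test (adjusted p = 0.322).

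Lamc1, on chromosome 1, encodes the gamma chain shared by most laminins and holds the binding site for nidogen. Probe set 1423885_at read 1123, 1278 and 1084 in diploid EpiSC-1, 922, 853 and 902 in diploid EpiSC-2, 1035, 910 and 882 in haploid EpiSC-1, and 732, 742 and 737 in haploid EpiSC-2. Diploid EpiSC-1 was the highest line and haploid EpiSC-2 the lowest, and diploid EpiSC-2 overlapped haploid EpiSC-1. The ploidy difference was -0.29 (SE 0.21, 95% interval -0.74 to 0.16, adjusted p = 0.405). The dimmer probe set 1423886_at gave 0.36 (adjusted p = 0.521), of the opposite sign, and neither was called.

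Of the nidogens, Nid1, on chromosome 13, had the larger difference. Probe set 1416808_at read 186, 190.5 and 174 in diploid EpiSC-1 (183 ± 8.83, n = 3) and 623, 677 and 491 in diploid EpiSC-2 (597 ± 95.8, n = 3). In haploid EpiSC-1 it read 1674, 1697 and 1523 (1631 ± 94.6, n = 3), and in haploid EpiSC-2 1512, 1810 and 1566 (1629 ± 159, n = 3). The haploid lines overlapped each other and lay above diploid EpiSC-2, which lay above diploid EpiSC-1. The ploidy difference was 2.30 (SE 0.40, 95% interval 1.47 to 3.14, adjusted p = 8.37e-04). With the 4 line means as the units of the test it was no longer called (adjusted p = 0.0852). Over all alternative fits the difference ran from 1.46 to 3.15. The SE and interval use 1 within-line correlation for all genes, while the diploid lines differed by 1.69 in Nid1. A dimmer Nid1 probe set, 1448469_at, read 43.8 to 85.6 on the diploid arrays and 224 to 288 on the haploid ones, a difference of 1.98 (adjusted p = 0.00916 over probe sets). The remaining one, 1441519_at, read 30.4 or less on every array.

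Nid2, on chromosome 14, encodes the other nidogen, which binds laminin and collagen in the same way. Its probe set, 1423516_a_at, read 1536, 1521 and 1669 in diploid EpiSC-1, 1424, 1249 and 1478 in diploid EpiSC-2, and 1528, 1480 and 1611 in haploid EpiSC-1. In haploid EpiSC-2 it read 2246, 2134 and 1924, above every other array. Diploid EpiSC-2 was lowest, just under the overlapping diploid EpiSC-1 and haploid EpiSC-1. The ploidy difference was 0.29 (SE 0.20, 95% interval -0.15 to 0.72, adjusted p = 0.388).

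Hspg2, on chromosome 4, encodes perlecan. Probe set 1418669_at read 452, 414 and 303 in diploid EpiSC-1, 509, 411 and 366 in diploid EpiSC-2, 599.8, 569.9 and 423 in haploid EpiSC-1, and 570.2, 404 and 486 in haploid EpiSC-2. All 4 lines overlapped, and the ploidy difference of 0.32 (SE 0.43, 95% interval -0.60 to 1.24) did not pass the test (adjusted p = 0.695). Probe set 1418670_s_at read 202 to 262 in diploid EpiSC-1 and 315 to 491 in the other lines, and its ploidy difference of 0.50 was not called either (adjusted p = 0.418).

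Dab2, on chromosome 15, had the lowest adjusted p of the 8 tested genes in this comparison. Probe set 1420498_a_at read 187, 183 and 227 in diploid EpiSC-1 (199 ± 24.5, n = 3) and 143, 134 and 152 in diploid EpiSC-2 (143 ± 9.25, n = 3). It read 552, 532 and 509.7 in haploid EpiSC-1 (531 ± 21.0, n = 3) and 717, 607 and 577 in haploid EpiSC-2 (634 ± 73.8, n = 3). None of the 4 lines overlapped, the order rising from diploid EpiSC-2 through diploid EpiSC-1 and haploid EpiSC-1 to haploid EpiSC-2. The ploidy difference was 1.78 (SE 0.30, 95% interval 1.15 to 2.41, adjusted p = 6.40e-04). Probe set 1423805_at read 74.3 to 125 on the diploid arrays and 228 to 303 on the haploid ones, a difference of 1.40 (adjusted p = 0.0220 over probe sets). With the mean of all 4 Dab2 probe sets, 2 of them under the signal limit, the difference was 1.41 and not called (adjusted p = 0.0773).

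**Figure D2:**
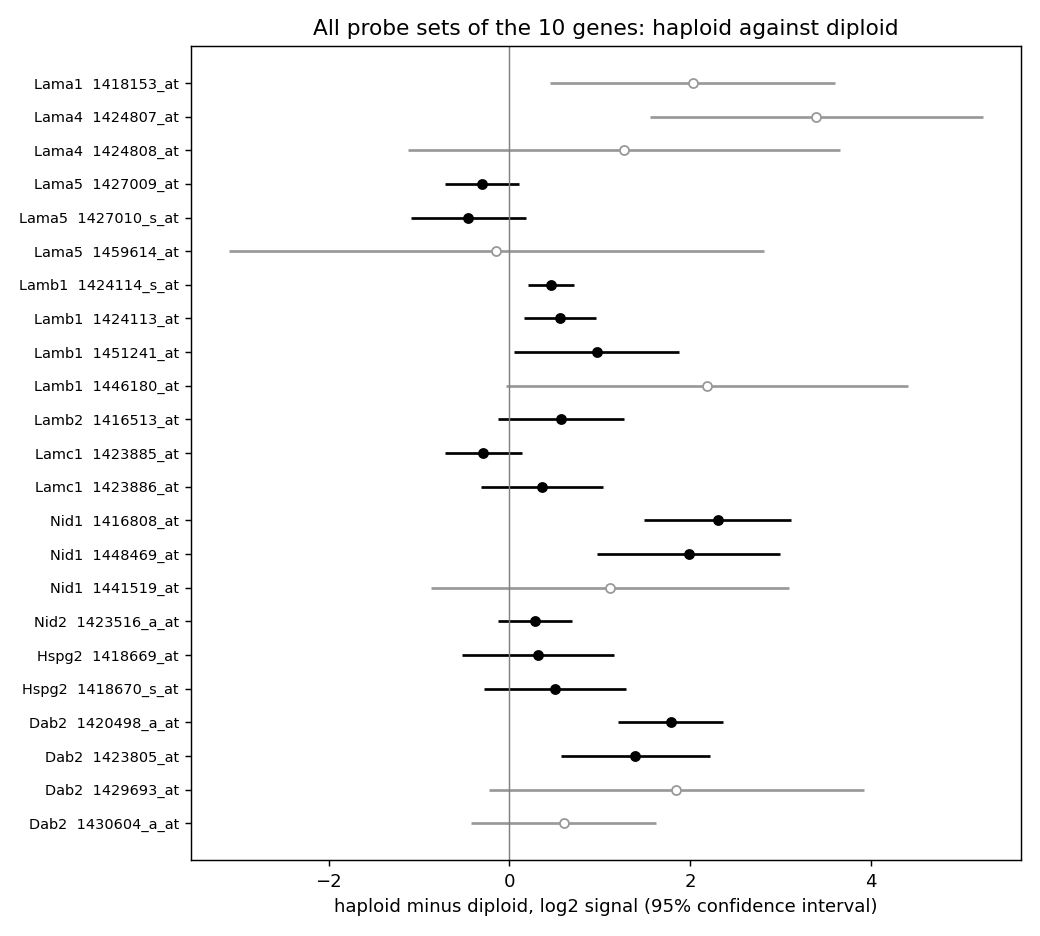
Haploid minus diploid log2 signal of all 23 probe sets with its 95% confidence interval; filled points are probe sets past the signal limit, tested among 19837, and open grey points are dimmer ones, from the fit of all 34945. Both Nid1 probe sets past the limit and both of Dab2 lie above 0, and the 2 of Lamc1 lie on opposite sides of it.

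Tested one by one, 15 of the 23 probe sets passed the signal limit. Of the 15, 5 were called higher in the haploid lines, against 9.37% of all 19837 probe sets, and none lower, against 6.54%. They were the brightest of Lamb1 and the 2 each of Nid1 and Dab2.

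Each haploid line set against the mean of the diploid arrays, which both values share, gave 2.31 for EpiSC-1 and 2.30 for EpiSC-2 in Nid1, 1.66 and 1.91 in Dab2, and 0.60 and 0.33 in Lamb1. For Lamb2 these values were 0.80 and 0.34, for Lamc1 -0.11 and -0.46, and for Nid2 0.06 and 0.51. In Lama5 they were -0.31 and -0.29, and in Hspg2 0.38 and 0.25. Without haploid EpiSC-1 the ploidy difference was 2.30 for Nid1 (adjusted p = 0.00980) and 1.91 for Dab2 (adjusted p = 0.00260).

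The 2 haploid lines differed from each other in 4 of the 8 tested genes, against 56.6% of all genes. Nid2 was higher in haploid EpiSC-2, by 0.45 (SE 0.07, adjusted p = 1.02e-04), and Lamb1, Lamb2 and Lamc1 were lower there. That is 1 gene higher against 25.7% of all genes, and 3 lower against 31%. Lamb1 fell by 0.27 (SE 0.04, adjusted p = 8.34e-05), Lamb2 fell by 0.46 (SE 0.14, adjusted p = 0.0109) and Lamc1 fell by 0.35 (SE 0.07, adjusted p = 0.00102). Over the 15 probe sets past the limit 1 was called higher, against 22.8% of all, and 5 lower, against 26.7%. Those lower included 1424113_at of Lamb1 (-0.33, adjusted p = 0.00151) and 1423886_at of Lamc1 (-0.47, adjusted p = 0.00592), while 1451241_at of Lamb1 (-0.41, adjusted p = 0.0676) was not called. Centring the arrays moved the median of all genes by 0.16 in this comparison, and the calls of Lamb1 (-0.11, adjusted p = 0.0736) and Lamb2 (-0.30, adjusted p = 0.0861) were lost with it, that of Lamb2 also with quantile normalization (-0.32, adjusted p = 0.0673). Dab2 (0.25, SE 0.11, adjusted p = 0.0768) was not called but was called with centring (0.41, adjusted p = 0.0102) or quantile normalization (0.33, adjusted p = 0.0256). Nid1 gave -0.00 (95% interval -0.23 to 0.22, adjusted p = 0.975), Lama5 0.03 and Hspg2 -0.12, none of them called. Without the filter, where 34.4% of genes were called, Lama1 (-1.03, adjusted p = 0.188) and Lama4 (-1.26, adjusted p = 0.143) did not pass the test between the haploid lines.

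Between the diploid lines, Nid1 and Lamb2 were higher in EpiSC-2, and Lamc1, Nid2 and Dab2 were lower. These are 2 of 8 genes higher, against 26.4% of all genes, and 3 of 8 lower, against 29.4%, or 5 against 55.8% in either direction. Nid1 rose by 1.69 (SE 0.11, adjusted p = 6.79e-09), or 3.23-fold, the only difference of a tested gene here between the lines of a ploidy that exceeded 2-fold. Its dimmer probe set 1448469_at, which read 85.6, 43.8 and 62.3 in diploid EpiSC-1 and 71.7, 60.2 and 58.8 in EpiSC-2, gave 0.04 (adjusted p = 0.895), so that the 2 Nid1 probe sets disagree on this comparison. Lamb2 rose by 0.66 (SE 0.14, adjusted p = 9.18e-04). Lamc1 fell by 0.38 (SE 0.07, adjusted p = 5.75e-04), and its dimmer probe set by more (-0.76, adjusted p = 1.34e-04).

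Dab2 fell by 0.47 (SE 0.11, adjusted p = 0.00275) in diploid EpiSC-2. Its second probe set past the limit, 1423805_at, was not called (-0.28, adjusted p = 0.199 over probe sets). Nid2 fell by 0.19 (SE 0.07, adjusted p = 0.0365). The Nid2 call was lost without diploid EpiSC-1 replicate 1 (adjusted p = 0.0521) or 3 (adjusted p = 0.139), or without diploid EpiSC-2 replicate 2 (adjusted p = 0.175). Lama5 (-0.16, adjusted p = 0.104), Lamb1 (-0.05, adjusted p = 0.394) and Hspg2 (0.15, adjusted p = 0.510) did not pass the test. Lama5 was called without diploid EpiSC-1 replicate 3 (-0.24, adjusted p = 0.0248) or diploid EpiSC-2 replicate 3 (-0.23, adjusted p = 0.0304). Over the 15 probe sets past the limit 3 were called higher, against 22.4% of all, and 7 lower, against 30.9%. Other probe sets of these genes were thus called, 1427010_s_at of Lama5 (-0.35, adjusted p = 0.0366), 1424113_at (-0.27, adjusted p = 0.00521) and 1451241_at (-0.99, adjusted p = 2.52e-04) of Lamb1, and 1418670_s_at of Hspg2 (0.79, adjusted p = 5.45e-04). The differences between probe sets of a gene were not tested. Without the filter, where 33.5% of genes were called, Lama1 (-0.41, adjusted p = 0.649) and Lama4 (-1.09, adjusted p = 0.218) did not pass the test.

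**Figure D3:**
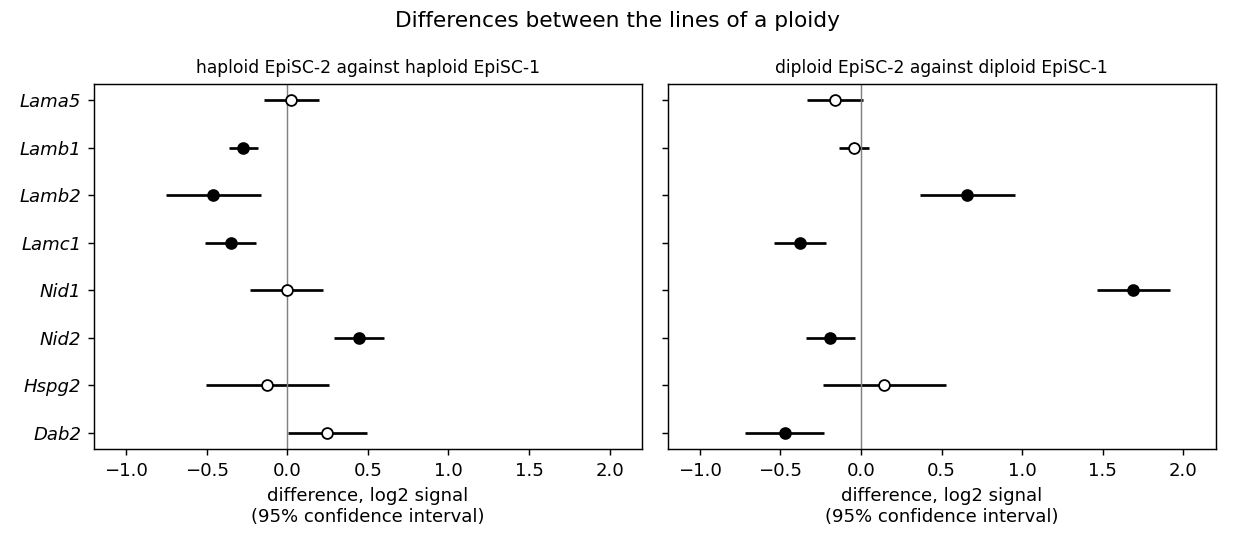
Differences in log2 signal between the lines of a ploidy for the 8 tested genes, with 95% confidence intervals; filled points passed an adjusted p of 0.05. Nid1 stands at 1.69 between the diploid lines and at about 0 between the haploid lines, and Lamc1 lies below 0 in both panels.

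The other genes of the basement membrane were taken by list. Of 6 type IV collagens, which form the second network of the sheet, 3 were bright enough to test, and all 3 were higher in the haploid lines, against 9.69% of all genes, with a median of 2.65 against 0.00. Col4a5 read 66.1 to 113 on the diploid arrays and 676 to 797 on the haploid ones (3.002, SE 0.32, adjusted p = 1.26e-05). Col4a1 read 298 to 804 and 1858 to 2709 (2.08, SE 0.32, adjusted p = 3.29e-04). Of 9 tested other basement membrane components, 3 were higher in the haploid lines and none lower, against 9.69% and 7.54% of all genes, with a median of 0.81 against 0.00. The fibulins Fbln1 (1.90, adjusted p = 0.00297) and Fbln2 (2.10, adjusted p = 0.0184), which are matrix proteins that bind laminin and nidogen, had the lowest p. Of 12 receptors, 9 were bright enough to test, integrin chains, dystroglycan and syndecans among them. None of the 9 was called in either direction, with a median of -0.11. Itga7, a receptor chain, had a mean log2 signal under the limit. It differed by 5.77 in the fit without a signal filter (adjusted p = 3.83e-05), where 18.1% of genes were called. Its values are given under other observations.

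Of the other laminin chains, only Lama3, an alpha chain of skin laminin, was tested (-1.50, adjusted p = 0.239). None of the 3 tested genes of dystroglycan glycosylation was called between ploidies. Of 10 tested cargo receptors and partners of Dab2, 1 was higher and 1 lower in the haploid lines, close to the 9.69% and 7.54% of all genes. The endocytic receptor Lrp1 read 219 to 288 on the diploid and 567 to 714 on the haploid arrays (1.34, SE 0.21, adjusted p = 4.46e-04). Ap2b1, a subunit of the clathrin adaptor AP-2, was lower (-0.78, adjusted p = 0.0440).

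**Figure D4:**
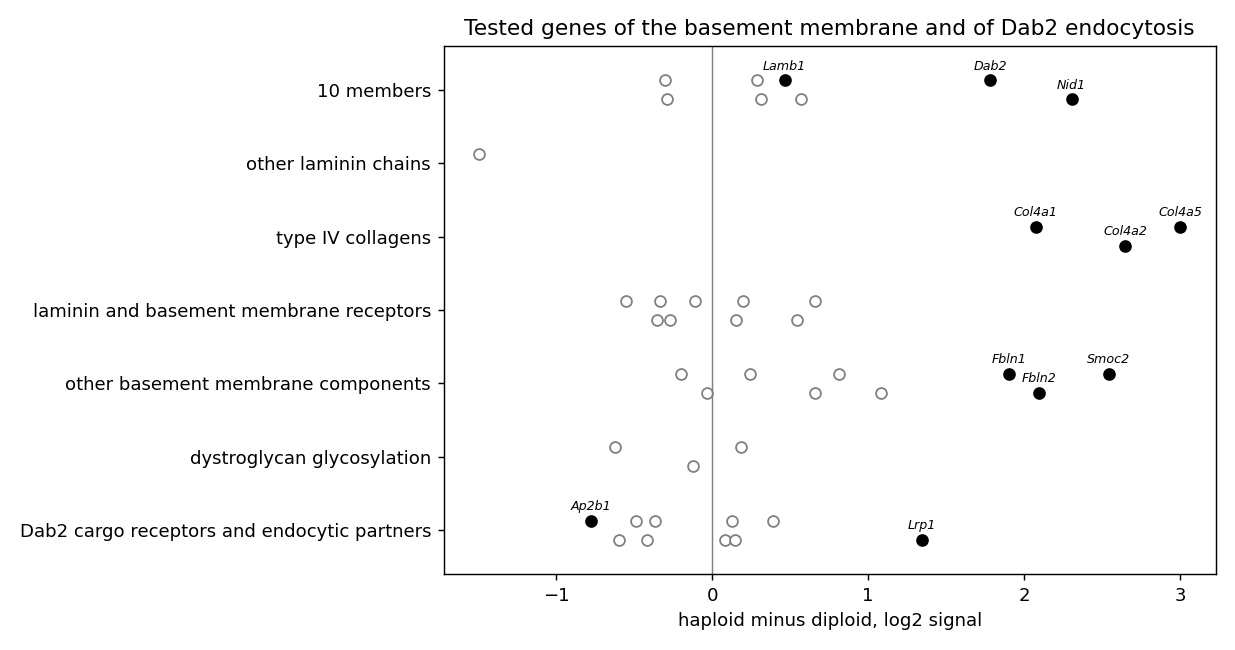
Haploid minus diploid log2 signal of the tested members of each list, 1 point a gene, with filled and named points where the adjusted p was under 0.05. The 3 type IV collagens lie between 2.08 and 3.002, and the receptors have no filled point.

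Within a ploidy the lists moved in other combinations. Between the diploid lines all 3 type IV collagens were higher in EpiSC-2, led by Col4a1 (1.09, adjusted p = 2.59e-07) and Col4a2 (1.13, adjusted p = 4.25e-04). Of the 9 receptors, 5 were higher there and 1 lower, against 26.4% and 29.4% of all genes, with Itgb1, the integrin beta chain shared by many laminin receptors (1.12, adjusted p = 1.56e-09), and Itga3 (0.96, adjusted p = 3.42e-08) first. The lower one was Itga6, an alpha chain of laminin receptors, which was lower (-0.13, adjusted p = 0.0404). Of the other components, 1 was higher, Sparc, a collagen-binding protein (1.83, adjusted p = 4.98e-12), and 4 were lower, Fbln1 (-0.94) and Col18a1 (-0.38) having the lowest p. No gene of dystroglycan glycosylation was called. Of the Dab2 list 3 were higher and 4 lower, against 26.4% and 29.4% of all genes. The higher ones were led by Ap2b1 (0.67) and the myosin Myo6 (0.31), and the lower ones by the scaffold gene Itsn1 (-0.52) and Lrp1 (-0.29). With centring 2 of that list were higher and 3 lower. Over all tested genes 2695 were then higher and 3290 lower, against 2928 and 3268 without centring.

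Between the haploid lines, 1 type IV collagen was higher in EpiSC-2, Col4a1 (0.46, adjusted p = 8.26e-04). Of the 9 receptors 5 were lower and none higher, against 31% and 25.7% of all genes, so that their share called was close to the 56.6% of all genes. Those with the lowest p were Sdc4, a heparan sulphate syndecan (-0.82, adjusted p = 1.87e-07), and Itgb1 (-0.69, adjusted p = 3.15e-07). Of the 9 other components 5 were lower and none higher, a share also close to that of all genes, with the matricellular gene Smoc2 (-3.27, adjusted p = 2.06e-08) and Fbln2 (-1.96, adjusted p = 6.33e-07) first. Centring the arrays took Itga6 and Dag1 out of the receptor count and called Itga3 higher, and took Sparc and Ntn4 out of the other and called Col18a1 higher. Of the 3 genes of dystroglycan glycosylation, Pomgnt1 (0.30) and Pomt2 (0.64) were higher and Pomt1 (-0.56) was lower. Of the Dab2 list 2 were lower, Myo6 (-0.38) and Lrp1 (-0.26), against 31% of all genes, and none higher, against 25.7%. With centring neither was called and 3 genes of the list were called higher. Over all tested genes 4184 were then higher and 2207 lower, against 2849 and 3439 without centring.

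Marker lists of other cell types were read on the same arrays. Of 11 tested fibroblast feeder markers, 9 were called higher in the haploid lines and none lower, beside 9.69% and 7.54% of all genes. Most of them passed the signal limit only through the haploid arrays, so this count is a description, and the sizes are uncertain. Between the diploid lines 8 of the 11 were higher in EpiSC-2 and 2 lower, against 26.4% and 29.4% of all genes. That count is a description too. Twist1 and Prrx1 of the higher ones and Dcn of the lower ones had means under the limit in both diploid lines. Between the haploid lines 1 of the 11 was higher and 3 lower, against 25.7% and 31%. Their summed signal was 1324 to 1549 in diploid EpiSC-1, 3201 to 3470 in diploid EpiSC-2, 30289 to 30659 in haploid EpiSC-1 and 31929 to 32411 in haploid EpiSC-2. Of the 12 such genes on the array, 8 were below the signal limit in diploid EpiSC-1, 5 in diploid EpiSC-2 and none in the haploid lines. Between the ploidies Nid1, Dab2, Lamb1 and the type IV collagens were higher in the lines with the higher sum. Between the diploid lines the brightest Nid1 probe set and Col4a1 were higher and the brightest Dab2 probe set lower in EpiSC-2. Nid1 probe set 1448469_at differed by 0.04 (adjusted p = 0.895) and Dab2 probe set 1423805_at by -0.28 (adjusted p = 0.199). The part of such cells in these differences was not tested.

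Of the endoderm markers, 5 of the 13 on the array were tested and none was called between ploidies, against 17.2% of all genes. With 5 genes, no call cannot be told apart from that share. Pdgfra read 43.5 to 104 on the diploid arrays and 196 to 314 on the haploid ones (1.77, SE 0.64, adjusted p = 0.0656). Gata6 (0.71) lay on the same side without being called, while Sox17, Foxa2 and Amn lay on the other. The summed signal of the 13 was 1790 to 1909 in diploid EpiSC-1 and 1100 to 1178 in diploid EpiSC-2. It was 793 to 1083 in haploid EpiSC-1 and 3098 to 3491 in haploid EpiSC-2. Of the 13, Sox7, Hnf4a, Ttr, Apoa1, Afp, Cubn and Thbd were below the signal limit in all 4 lines, while Gata6 read 134 to 499 over the arrays. Between the haploid lines 3 of the 5 were higher in EpiSC-2 and none lower, against 25.7% and 31% of all genes. Sox17 read 32.0 to 35.7 in haploid EpiSC-1 and 1249 to 1413 in EpiSC-2, Foxa2 28.6 to 52.2 and 845 to 954, and Gata6 254 to 274 and 401 to 499. The sizes for Sox17 and Foxa2 are uncertain, since both were under the limit in haploid EpiSC-1. In the same comparison Nid2 was higher and Lamb1, Lamb2 and Lamc1 were lower. Between the diploid lines 4 of the 5 (Gata6, Sox17, Foxa2 and Amn) were lower in EpiSC-2 and none higher, against 29.4% and 26.4% of all genes. Of the genes described here, Lamc1, Nid2 and Dab2 were lower there, and Nid1 and Lamb2 were higher. The part of such cells in these results was not tested. Endothelial markers summed to 92 to 248 over all arrays.

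Epiblast markers, which define the labelled cell type, had line means above the signal limit in all 4 lines for all 9 genes, though Otx2 and Fgf5 barely so in haploid EpiSC-1. Their sums were 64374 to 68478 and 50667 to 51884 in the diploid lines and 27339 to 27627 and 39802 to 41848 in the haploid lines. Of these, 1 was higher and 4 were lower in the haploid lines, against 9.69% and 7.54% of all genes. Between the haploid lines 6 were higher in EpiSC-2 and 2 lower, against 25.7% and 31% of all genes. Between the diploid lines 2 were higher and 6 lower, against 26.4% and 29.4%. Of 6 epithelial markers 4 were lower and none higher in the haploid lines, against 7.54% and 9.69% of all genes. The 3′ to 5′ signal ratio of the actin control probe sets, a sign of RNA integrity and labelling, was 1.46 to 1.68 on the diploid arrays and 1.34 to 1.42 on the haploid ones. For Gapdh it was 0.821 to 0.938 and 0.836 to 0.870. The part of these in the results was not tested.

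The tested genes whose profile over the 12 arrays was nearest to that of each of the 8 genes were found by the root mean square difference of log2 signal after each gene was centred on its own mean. Lamb1 had the closest neighbours, Tor1aip2 (0.0484), Abi1 (0.0500) and Ebp (0.0526). Lamc1 was nearest to Flad1 (0.0735) and Armh4 (0.0736), Lama5 to Marchf6 (0.0798), Nid2 to Fancb (0.0830) and Lamb2 to Pros1 (0.0980). For Hspg2 the nearest was Tcf20 (0.160), and for Dab2 Dusp4 (0.188), Irs1 (0.192) and Ctps2 (0.209). Nid1 was nearest to Lxn (0.247), Thbs1 (0.279) and Tgfbr2 (0.292). None of the 8 tested genes was among the 3 nearest of another. These distances are descriptions over 4 lines, and they are small where a gene varied little.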

How the data were processed

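Deposited values were linear MAS5 intensity signals, 1 column an array; MAS5 is named per the submitters' processing notes, without a version, and other steps are not given in the sources used here. On every array the mean after trimming 2% at each end was 500.003, and array medians were 63.6 to 76.5. Of 45101 probe sets, 64 controls, 932 with several symbols and 9160 with none were left out. No counts exist for arrays, so precision rests on 3 replicates a line.

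Signals were taken to log2 without a pseudocount or further normalization. limma 3.58.1 (statmod 1.5.0, R 4.3.3) tested 11105 genes. Haploid against diploid used the line as a random block (duplicateCorrelation, within-line correlation 0.806); lines of a ploidy were compared in a fit of 4 group means over 12 arrays; both used eBayes with an intensity trend. Calls are at a Benjamini-Hochberg adjusted p under 0.05. Probe sets were tested in fits of their own, over 19837 past the limit or all 34945. The code was tested on simulated data. Python 3.11.15 read the promoters.

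The members and lists were chosen with earlier results of these data known. All members are named; of each list, counts are given and values for the 2 genes of lowest p in each direction, with the 3 nearest genes a member. Alternatives were other scalings, a pseudocount of 16, no filter or one 1 log2 unit higher, other summaries of probe sets, no trend, line means, a replicate block, and each array or line left out. Every probe set without a filter was added after the data were seen.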

Additional observations from a re-analysis of the deposited data

Results flagged for a closer look

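For 4 genes the difference from the diploid mean was not the same in the 2 haploid lines, by a limma contrast of the lines in which the shared diploid mean cancels. This is the comparison of the 2 haploid lines given above, not a further result. The difference in haploid EpiSC-2 minus that in haploid EpiSC-1 was -0.27 for Lamb1, -0.46 for Lamb2, -0.35 for Lamc1 and 0.45 for Nid2, on the log2 scale. These are 4 of 8 tested genes, against 56.6% of all genes, and the Lamb1 and Lamb2 calls were lost when arrays were centred on their medians. Groups of 3 arrays were not searched for outlying samples.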

How the results depend on the processing

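Of 568 values recomputed under the alternatives, 532 kept their direction and their side of the threshold, 19 called values were no longer called, 5 uncalled ones were called and 12 uncalled ones changed sign. Of the 3 genes called between haploid and diploid lines, 1 was called with line means as the units (Dab2, adjusted p = 0.0430) and 1 with the mean of all probe sets (Nid1), and 3 in every fit without 1 array. In the fits without 1 array, 4 were called between the haploid lines each time, and 4 to 6 between the diploid lines. With the replicate number as a block the counts were 3, 4 and 5, as without it. Deviations of same-numbered arrays correlated at -0.05 to 0.08 across lines (median 0.007), and those of other pairs at -0.06 to 0.03 (median -0.0045). No strong effect shared by same-numbered arrays was seen, but such correlations cannot show whether those samples were handled together. The count over all genes between ploidies, 1913, was 325 with line means, 3290 without a filter, 3157 over probe sets, 5655 over probe sets without a filter and 2834 without haploid EpiSC-2; over probe sets it was 9827 between the haploid and 10574 between the diploid lines, against 6288 and 6196, and 9761 and 10392 with no filter. Centring moved the median of all genes by -0.12 between ploidies, where 812 genes were then higher and 1086 lower against 1076 and 837, and between the haploid lines it gave 4184 higher and 2207 lower against 2849 and 3439.

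Signs changed with the mean of all probe sets for Dab2 (-0.022) and Nid1 (0.34) between the haploid lines and Lamc1 between ploidies (0.036), and with centring for Hspg2 (0.035) and Nid1 (0.15) between the haploid lines. Without 1 array, values between the haploid lines ran from -0.083 to 0.047 for Nid1 (above 0 without haploid EpiSC-1 replicate 1 or 2 or haploid EpiSC-2 replicate 1 or 3), from -0.017 to 0.061 for Lama5 (below 0 without haploid EpiSC-1 replicate 2) and from -0.28 to 0.0043 for Hspg2 (above 0 without haploid EpiSC-2 replicate 2). Between the diploid lines Hspg2 ran from -0.026 (without diploid EpiSC-1 replicate 3) to 0.26. With the mean of all probe sets, calls were lost for Lamb1 between ploidies (1.04, adjusted p = 0.104) and between the haploid lines (-0.33, adjusted p = 0.207), and for Nid1 (0.49, adjusted p = 0.0700) and Dab2 (-0.46, adjusted p = 0.158) between the diploid lines, where Hspg2 was called (0.47, adjusted p = 0.00495). The Nid2 call between the diploid lines was also lost with quantile normalization (-0.12, adjusted p = 0.165), without the trend (adjusted p = 0.0664) and without the filter over genes (adjusted p = 0.0520) or probe sets (adjusted p = 0.0609). The cause was not tested. Signal over background limits Lama1, Lama4 and the dim probe sets, and 2 lines a ploidy limit every ploidy value.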

Other observations

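Genes of the lists with a mean log2 signal under the limit include 3 with arrays well apart. These 3 were chosen after their values were seen and tested without a signal filter. Itga7, an integrin alpha chain that binds laminin, read 1.63 to 8.27 on the diploid arrays, 317.1 to 366.3 in haploid EpiSC-1 and 103.2 to 204.8 in haploid EpiSC-2, a haploid minus diploid difference of 5.77 (SE 0.72, adjusted p = 3.83e-05). Lamb3, a beta chain of skin laminin, read 146.7, 163.3 and 179.7 in diploid EpiSC-2 and 15.4 to 49.7 elsewhere, and differed by 2.23 (SE 0.47, adjusted p = 0.00141) between the diploid lines. Itgb4, the integrin beta chain of hemidesmosomes, read 78.6, 85.8 and 91.4 in diploid EpiSC-2 and 5.63 to 31.0 elsewhere, and differed by 2.59 (SE 0.74, adjusted p = 0.0129) between the diploid lines. The sizes are uncertain where 1 side is near background.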
